A study of Homo sapiens with 10 samples.

Results

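The genes described here encode the integrin alpha chains, the integrin beta chains and the laminin chains. They were taken as every protein-coding row of the long RNA tables whose symbol names such a chain, which gave 38 genes (18 integrin alpha, 8 integrin beta and 12 laminin) among 55771 gene symbols. Long RNA had been sequenced from BEAS-2B, a line of immortalised epithelium from human bronchus, grown in LHC9 medium with fetal bovine serum. A group of 2 libraries came from cells given the empty vector, and a group of 3 libraries from cells given a TAF1C vector with the pCMV6 promoter. TAF1C is a subunit of the SL1 factor that brings RNA polymerase I to ribosomal RNA genes. Stable cells of both groups were kept under G418, and the labels do not say whether each line was 1 clone or a pool, or whether replicates were grown apart. A p-value here therefore covers the spread between these libraries, which may be technical.

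Laminins are large secreted proteins of the basement membrane, each assembled from an alpha, a beta and a gamma chain, and their names give the chains in that order. Integrins are cell surface receptors made of an alpha and a beta chain, which bind laminins, collagens, fibronectin or proteins on other cells and tie them to the actin or keratin skeleton. In the airway, basal cells are held to the basement membrane by laminin-332 and the integrin alpha6 beta4, the core of the hemidesmosome.

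The long RNA libraries held between 22809601 and 37533366 gene counts. Levels are given as CPM, counts divided by TMM-adjusted library sizes. TAF1C itself stood at 64.4 and 77.7 CPM under empty vector and at 64.0, 59.0 and 67.0 CPM in the TAF1C-labelled libraries, which goes against their label, so the groups are called by their labels throughout. The 8 bronchial epithelial markers summed to 365 and 360.0 CPM under empty vector and 1330.0 to 1445 CPM with the TAF1C label, so the epithelial sum was higher where the raised integrin and laminin genes were, and its part in their rise was not tested. Of these 8, 3 rose, namely the keratin genes KRT7 (223 and 247 CPM against 967 to 1062 CPM), KRT8 (101 and 96.8 CPM against 318 to 348 CPM) and KRT18 (15.5 and 13.8 CPM against 39.3 to 41.0 CPM). EPCAM fell (14.7 and 1.1 CPM against 0.0570 to 0.433 CPM). CDH1 (2.97 and 0.355 CPM against 0.588 to 1.45 CPM), KRT19 (4.39 and 0.391 CPM against 1.48 to 2.88 CPM), TP63 (1.9 and 0.249 CPM against 0.324 to 0.557 CPM) and KRT5 (1.3 and 0.142 CPM against 0.412 to 1.05 CPM) were low, and all 5 of these non-rising markers were highest in empty vector replicate 1. The empty vector libraries stood apart from each other, with an SD of the log2 difference over all tested genes of 1.11, against 0.454 to 0.490 between TAF1C-labelled pairs. They also held markers of cells other than airway epithelium. The summed level of 9 photoreceptor and retina markers was 1408 and 989 CPM there and 6.5 to 9.92 CPM with the TAF1C label, and 8 of the 9 fell. Of 6 neuronal markers 5 fell (sums of 230.2 and 86.4 CPM against 5.35 to 5.79 CPM). The 6 pigment cell markers summed to 829.5 and 151 CPM against 12.9 to 14.0 CPM, with 1 raised and 1 lowered. DCT (820.4 and 147 CPM against 0.206 to 0.495 CPM) fell and MITF (4.13 and 2.45 CPM against 9.21 to 9.85 CPM) rose. In bulk RNA, fewer cells of a type and less RNA per cell cannot be told apart. The part of these other markers in the results below was not tested.

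Of the 38 genes, 36 reached 1 CPM in at least 2 libraries and were tested. In the TAF1C-labelled libraries 13 of them were higher and 2 were lower than under empty vector past an adjusted p of 0.05 (edgeR quasi-likelihood test, Benjamini-Hochberg over all 18402 genes tested), and 21 did not pass. Among all tested genes 15.9% were raised and 22.6% lowered, against 36.1% and 5.56% of the integrin and laminin genes. Their median log2 fold change was 0.34, that of all tested genes -0.10. In 16 of the 36 every TAF1C-labelled library lay above both empty vector libraries, against 29.8% of all tested genes, and in 3 every one lay below, against 34.4%. Of the 15 genes past the test, 14 stayed past it in the same direction in all 14 alternative fits, the exception being ITGB4.

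**Figure D1:**
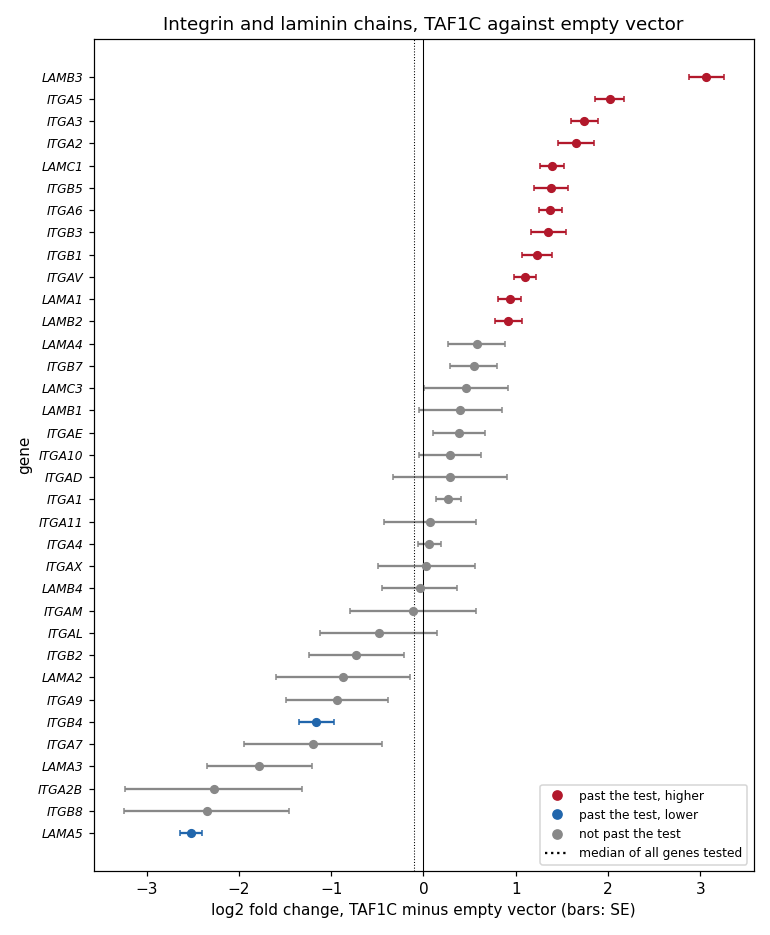
Log2 fold change (horizontal axis, TAF1C-labelled minus empty vector, bars show the SE) of 35 tested integrin and laminin genes, sorted by size, with the median of all tested genes dotted. The 12 raised genes drawn run from LAMB2 (0.92) to LAMB3 (3.06), and the lowered ones are ITGB4 (-1.16) and LAMA5 (-2.52).

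The start regions of 5 genes are shown here because LAMB3, LAMA5 and ITGA5 carry the largest rises and the largest fall, LAMA3 parts from LAMB3, and ITGA6 parts from its partner ITGB4. The RefSeq table (GRCh38.p14) held an entry for 26 of the 38 genes. Each line gives the 250 bases before the most upstream listed start, 5′ to 3′ on the strand of the gene. Capitals mark matches on either strand to the motif of the factor AP-1 with the letters TGANTCA, that of the TEAD factors with GGAATG, the MYC box with CACGTG, the SP1 box with GGGCGG and the TATA motif with TATAAA, none of which overlapped another in these regions. LAMA3 lies at chr18:23872770-23873019 (+ strand), LAMB3 at chr1:209652426-209652675 (- strand), LAMA5 at chr20:62367313-62367562 (- strand), ITGA5 at chr12:54419267-54419516 (- strand) and ITGA6 at chr2:172427086-172427335 (+ strand).
LAMA3: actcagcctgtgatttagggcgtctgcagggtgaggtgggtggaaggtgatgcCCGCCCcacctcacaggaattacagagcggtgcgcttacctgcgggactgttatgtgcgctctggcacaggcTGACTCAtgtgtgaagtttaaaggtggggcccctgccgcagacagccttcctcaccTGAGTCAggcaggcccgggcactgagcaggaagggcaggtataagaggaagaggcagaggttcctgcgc
LAMB3: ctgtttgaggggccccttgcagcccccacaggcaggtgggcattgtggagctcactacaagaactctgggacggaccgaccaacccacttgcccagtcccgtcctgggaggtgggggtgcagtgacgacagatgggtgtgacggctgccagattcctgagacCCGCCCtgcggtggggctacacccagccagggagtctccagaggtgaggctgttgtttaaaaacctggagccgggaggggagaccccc
LAMA5: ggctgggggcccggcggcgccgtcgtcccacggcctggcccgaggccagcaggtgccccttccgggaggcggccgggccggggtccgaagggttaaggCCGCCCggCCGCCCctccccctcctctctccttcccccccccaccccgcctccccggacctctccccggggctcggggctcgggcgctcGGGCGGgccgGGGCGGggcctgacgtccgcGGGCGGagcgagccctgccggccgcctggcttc
ITGA5: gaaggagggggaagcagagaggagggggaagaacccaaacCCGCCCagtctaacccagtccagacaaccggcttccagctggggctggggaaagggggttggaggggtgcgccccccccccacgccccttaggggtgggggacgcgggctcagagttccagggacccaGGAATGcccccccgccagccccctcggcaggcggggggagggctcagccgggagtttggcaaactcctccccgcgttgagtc
ITGA6: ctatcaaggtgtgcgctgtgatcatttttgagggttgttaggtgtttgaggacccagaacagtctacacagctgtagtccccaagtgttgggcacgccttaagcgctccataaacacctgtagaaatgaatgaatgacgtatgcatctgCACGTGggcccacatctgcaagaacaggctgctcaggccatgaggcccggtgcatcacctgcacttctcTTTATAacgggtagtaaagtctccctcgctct
LAMA3 was the 1 gene of the 26 with an AP-1 match, and it had a pair of them, beginning 125 and 69 bases before the start. An AP-1 match stood in 6.57% of the 27305 promoters of the table. ITGA5 held a TEAD match 82 bases before its start, as did ITGB1, another raised gene, at 182 bases. A TEAD match was found in 4 of the 26 genes and in 12% of all promoters. ITGA6 held a MYC box at 101 bases and a TATA motif at 32 bases, motifs found in 6.46% and 11.2% of all promoters. LAMA5 held 5 SP1 boxes, and LAMB3, ITGA5 and LAMA3 held 1 each. In all 13 of the 26 genes had an SP1 box, against 42.2% of all promoters. These matches describe letters in a window and show no binding.

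Laminins come first, as the ligands. LAMB3, the beta chain of laminin-332 (ENSG00000196878), had the largest rise of the 36 genes. It stood at 5.8 and 4.3 CPM under empty vector and at 41.5, 41.7 and 43.4 CPM in the TAF1C-labelled libraries. The groups were far apart and each was narrow, with means of 5.05 ± 1.06 (SD, n = 2) and 42.2 ± 1.06 CPM (SD, n = 3), a rise of 8.36-fold (log2 fold change 3.06 ± 0.19 (SE), edgeR adjusted p = 0.000405).

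LAMA3, the alpha chain of laminin-332 (ENSG00000053747), did not rise with LAMB3. It stood at 156 and 34.3 CPM under empty vector and at 27.7, 26.5 and 28.9 CPM in the TAF1C-labelled libraries. Every TAF1C-labelled library lay below both empty vector libraries, yet the latter differed 4.55-fold from each other, and the difference did not pass (log2 fold change -1.78 ± 0.57 (SE), edgeR adjusted p = 0.0534). Without empty vector replicate 1 its log2 fold change was -0.37, and -2.53 without replicate 2. LAMA3 passed as lower with DESeq2 (adjusted p = 0.00514), and also with library totals, without a filter and with the replicate block. Its highest adjusted p over all settings was 0.169. The log2 fold change was negative in every setting (-2.53 to -0.37). LAMA3 was thus high in 1 empty vector library, while LAMB3 was low in both.

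LAMA5, the alpha chain of laminin-511 and laminin-521 (ENSG00000130702), which is widespread in adult epithelial basement membranes, fell furthest. It stood at 102 and 110.4 CPM under empty vector and at 19.6, 16.9 and 19.3 CPM in the TAF1C-labelled libraries. The groups did not overlap, and the level was 5.73-fold higher under empty vector (log2 fold change -2.52 ± 0.12 (SE), edgeR adjusted p = 0.000232). The empty vector libraries, which differed so much in LAMA3, were close here, at a ratio of 1.08. LAMA1, the alpha chain of laminin-111, known from embryonic basement membranes (ENSG00000101680), stood at 101 and 84.8 CPM under empty vector and at 176, 182 and 173 CPM in the TAF1C-labelled libraries. It rose 1.91-fold with no overlap (log2 fold change 0.93 ± 0.12 (SE), edgeR adjusted p = 0.0037).

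Among the chains shared by many laminins, LAMC1, the common gamma chain (ENSG00000135862), stood at 189.9 and 201 CPM under empty vector and at 514, 519 and 506 CPM in the TAF1C-labelled libraries. It rose 2.62-fold with no overlap (log2 fold change 1.39 ± 0.13 (SE), edgeR adjusted p = 0.00113). LAMB2, the beta chain of laminin-521 (ENSG00000172037), stood at 88.0 and 109 CPM under empty vector and at 198, 171 and 189 CPM in the TAF1C-labelled libraries, a rise of 1.89-fold (edgeR adjusted p = 0.00649). LAMB1, the beta chain of laminin-111 and laminin-511 (ENSG00000091136), stood at 183 and 574 CPM under empty vector and at 502, 498 and 496 CPM in the TAF1C-labelled libraries. The TAF1C-labelled libraries lay within 1.01-fold of each other and between the empty vector libraries. LAMB1 did not pass (log2 fold change 0.40 ± 0.45 (SE), edgeR adjusted p = 0.519), and without empty vector replicate 1 its log2 fold change was -0.27, and 1.41 with replicate 2 left out.

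LAMA4, found in vessel and muscle basement membranes, stood at 17.6 and 8.99 CPM under empty vector and at 18.4, 18.9 and 22.1 CPM in the TAF1C-labelled libraries (edgeR adjusted p = 0.187). When empty vector replicate 1 was left out its log2 fold change was 1.07, and 0.14 when replicate 2 was. LAMA2, the alpha chain of muscle and nerve laminin (1.03 to 5.76 CPM), LAMB4 (0.818 to 1.38 CPM) and LAMC3 (1.14 to 2.99 CPM) were low in every library and did not pass. LAMB1 and LAMB4, next to each other in RefSeq gene order on chromosome 7, did not pass.

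**Figure D2:**
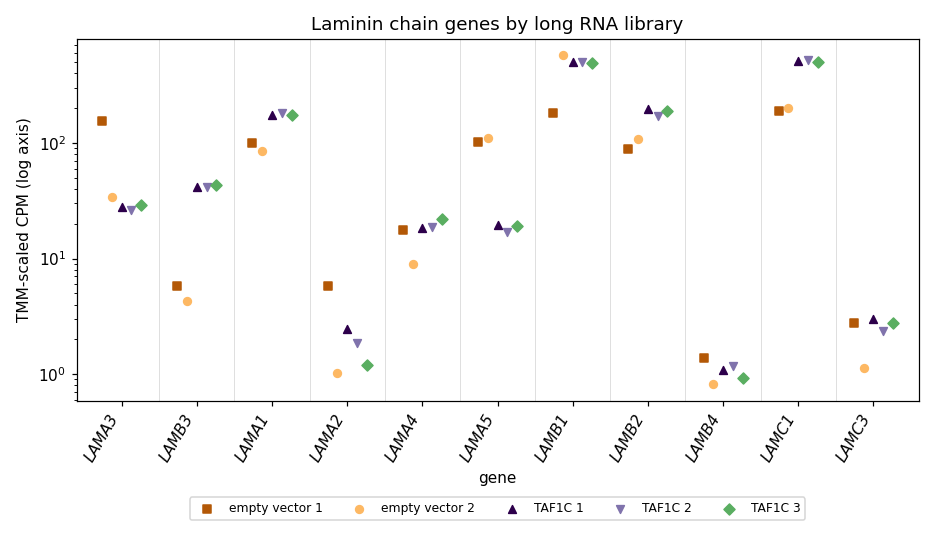
Levels of 11 laminin chain genes (horizontal axis) in TMM-scaled CPM on a log axis, 1 point for each of the 5 long RNA libraries. LAMB3 and LAMC1 are higher in the 3 TAF1C-labelled libraries and LAMA5 is lower, while the empty vector points are split for LAMA3 (156 and 34.3 CPM) and LAMB1 (183 and 574 CPM).

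Shares of counts within a family do not depend on how libraries are scaled, although longer genes weigh more in them. Of all laminin alpha chain counts, LAMA1 held 26.3% and 35.4% under empty vector and 72.1%, 74.0% and 70.8% in the TAF1C-labelled libraries. LAMA5 held 26.7% and 46.1% under empty vector and 8.01%, 6.84% and 7.87% in the TAF1C-labelled libraries. For these chains no 95% Wilson interval, which covers counting error only, reached a library of the other group. LAMA1 led the alpha chain counts in all 3 TAF1C-labelled libraries, while LAMA3 (40.8%) led in empty vector replicate 1 and LAMA5 in replicate 2. As a share of the counts of all 12 laminin genes, LAMA1 overlapped between the groups. That share was 11.7% and 7.48% under empty vector and 11.6%, 12.2% and 11.6% in the TAF1C-labelled libraries.

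**Figure D3:**
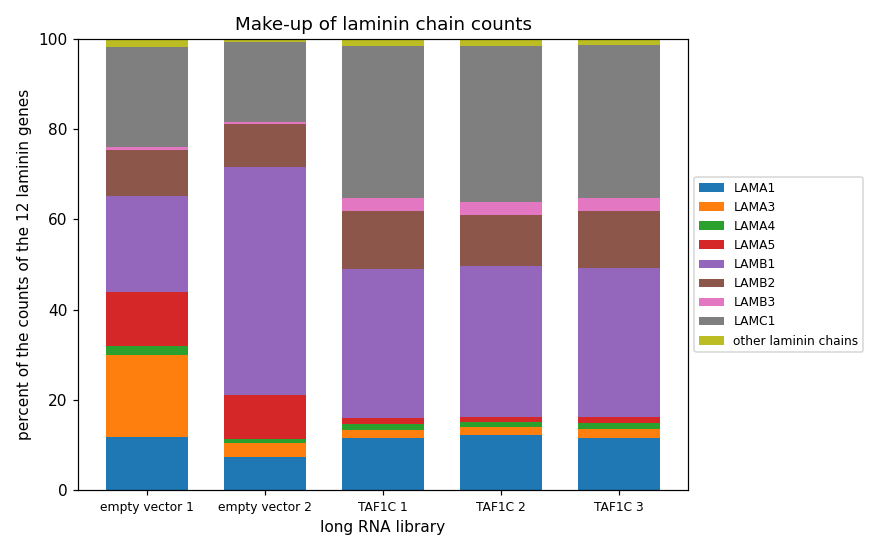
Percent of the counts of the 12 laminin genes held by 8 named chains and the others together (stacked bars) in the 5 long RNA libraries. The LAMA3 part is 18.2% in empty vector replicate 1 and at most 3.02% elsewhere, LAMB1 is 50.6% in empty vector replicate 2, and LAMA5 is 11.9% and 9.74% under empty vector and 1.13% to 1.29% with the TAF1C label.

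Of the laminin receptor alpha chains, ITGA3 and ITGA6 rose and ITGA7 did not pass. ITGA3, which pairs with beta1 and binds laminin-332 and laminin-511 (ENSG00000005884), stood at 179.7 and 153 CPM under empty vector and at 587, 525 and 562 CPM in the TAF1C-labelled libraries. It rose 3.35-fold with no overlap (log2 fold change 1.74 ± 0.15 (SE), edgeR adjusted p = 0.00096). Its share of integrin alpha chain counts was 33.4% and 33.7% under empty vector and 48.9%, 45.1% and 48.1% in the TAF1C-labelled libraries. ITGA6, which pairs with beta1 or beta4 (ENSG00000091409), stood at 34.0 and 39.3 CPM under empty vector and at 93.3, 102 and 90.4 CPM in the TAF1C-labelled libraries. It rose 2.59-fold with no overlap (log2 fold change 1.38 ± 0.13 (SE), edgeR adjusted p = 0.0012), but its share of alpha chain counts overlapped between the groups, at 6.32% and 8.63% against 7.76%, 8.72% and 7.74%.

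ITGB4, the partner of alpha6 in the hemidesmosome, with a long tail that binds plectin (ENSG00000132470), went the other way. It stood at 23.1 and 17.4 CPM under empty vector and at 8.98, 8.79 and 9.37 CPM in the TAF1C-labelled libraries. All 3 of the latter lay below both empty vector libraries, and the level was 2.24-fold higher under empty vector (log2 fold change -1.16 ± 0.19 (SE), edgeR adjusted p = 0.00753). Its call was lost (edgeR adjusted p = 0.0512) without TAF1C replicate 1 and (edgeR adjusted p = 0.0508) without TAF1C replicate 2. Its share of beta chain counts was 6.52% and 4.46% under empty vector and 1.15%, 1.02% and 1.2% in the TAF1C-labelled libraries. ITGA6 and ITGB4, whose products form 1 receptor, therefore differed in opposite directions.

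ITGB1, the beta chain that pairs with most alpha chains (ENSG00000150093), stood at 273 and 329 CPM under empty vector and at 677, 768 and 678 CPM in the TAF1C-labelled libraries. It rose 2.35-fold with no overlap (log2 fold change 1.23 ± 0.16 (SE), edgeR adjusted p = 0.00357). ITGB1 held 77.3% and 84.4% of beta chain counts under empty vector and 86.8%, 88.8% and 86.7% in the TAF1C-labelled libraries.

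Receptors for fibronectin and vitronectin, which read the RGD sequence of their ligands, rose in part. ITGA5, whose pair with beta1 is the main fibronectin receptor (ENSG00000161638), stood at 30.1 and 23.2 CPM under empty vector and at 109, 102 and 113 CPM in the TAF1C-labelled libraries. This was the largest rise of the integrin genes, 4.05-fold (log2 fold change 2.02 ± 0.16 (SE), edgeR adjusted p = 0.000712). ITGAV, the alpha chain of vitronectin receptors and of activators of latent TGF-beta (ENSG00000138448), stood at 113 and 121 CPM under empty vector and at 246, 264 and 239 CPM in the TAF1C-labelled libraries, a rise of 2.14-fold (edgeR adjusted p = 0.00194). Of its beta partners, ITGB5 (ENSG00000082781) stood at 20.5 and 29.1 CPM under empty vector and at 68.4, 59.3 and 66.3 CPM in the TAF1C-labelled libraries, and rose 2.61-fold (edgeR adjusted p = 0.00396). ITGB3 (ENSG00000259207) stood at 5.87 and 5.65 CPM under empty vector and at 14.1, 15.4 and 14.7 CPM in the TAF1C-labelled libraries, and rose 2.56-fold (edgeR adjusted p = 0.00424). In these 4 genes the groups did not overlap.

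Neither ITGB8 nor ITGB6, which also pair with alphaV, was called in the main fit. ITGB8, which helps free TGF-beta from its latent form, stood at 19.0 and 1.6 CPM under empty vector and at 1.97, 2.21 and 1.86 CPM in the TAF1C-labelled libraries (edgeR adjusted p = 0.0868). It passed with DESeq2 (adjusted p = 0.0212). Without empty vector replicate 2 its log2 fold change was -3.27, and 0.26 with replicate 1 left out, so its sign rests on replicate 1. ITGB6, an epithelial beta chain induced on injury, was not tested, at 0.355 to 0.804 CPM over the 5 libraries. ITGA8, another RGD receptor chain, was not tested either, at 2.45 and 0.391 CPM under empty vector and 0.495 to 0.853 CPM in the TAF1C-labelled libraries.

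Of the collagen receptors, 1 of 4 rose and 3 did not pass. ITGA2, an epithelial collagen receptor (ENSG00000164171), stood at 9.29 and 7.11 CPM under empty vector and at 23.4, 27.4 and 26.5 CPM in the TAF1C-labelled libraries. It rose 3.14-fold with no overlap (log2 fold change 1.65 ± 0.20 (SE), edgeR adjusted p = 0.00255). ITGA1 comes before ITGA2 when the coding genes of chromosome 5 are ordered by start, and only PELO starts between them. ITGA1 stood at 50.1 and 43.8 CPM under empty vector and at 56.1, 62.0 and 51.6 CPM in the TAF1C-labelled libraries. Its groups did not overlap either, but the difference did not pass (log2 fold change 0.27 ± 0.13 (SE), edgeR adjusted p = 0.165). ITGA10 (4.41 to 8.55 CPM) and ITGA11 (1.35 to 3.38 CPM), collagen receptors of cartilage and fibroblasts, had groups that overlapped.

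**Figure D4:**
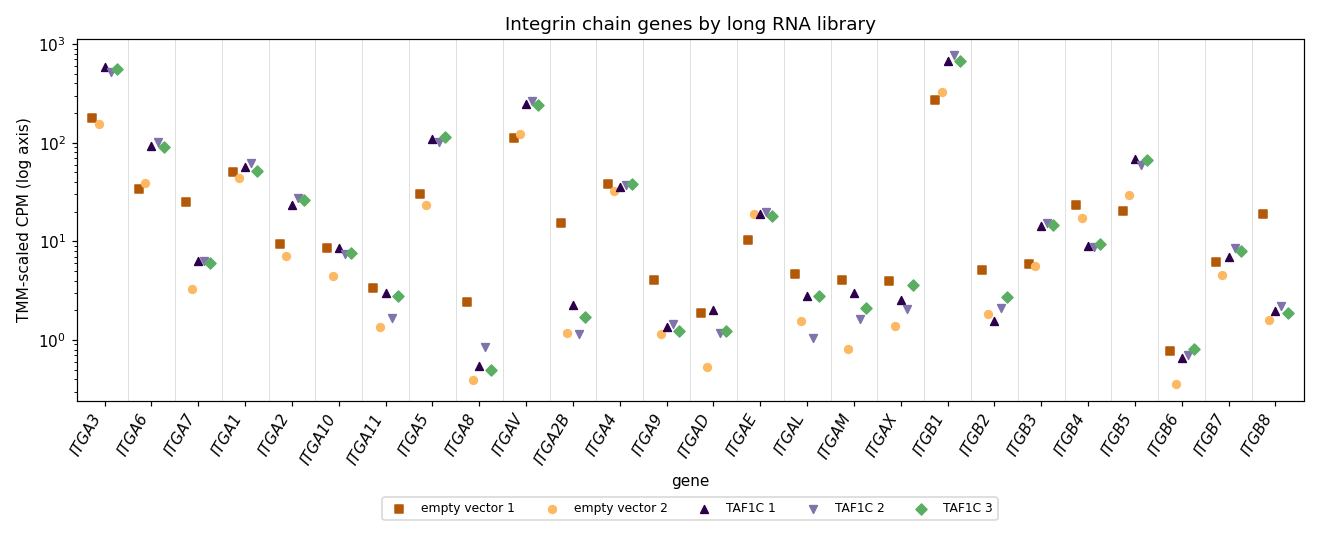
Levels of the 26 integrin chain genes (horizontal axis) in TMM-scaled CPM on a log axis, 1 point for each of the 5 long RNA libraries. In ITGA3, ITGA6, ITGA2, ITGA5, ITGAV, ITGB1, ITGB3 and ITGB5 the 3 TAF1C-labelled libraries lie above both empty vector libraries. They also do so in ITGA1 and ITGB7, which did not pass. In ITGA7, ITGA2B and ITGB8 empty vector replicate 1 lies alone at the top.

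ITGA4, whose pairs bind fibronectin and VCAM1, stood at 37.9 and 32.7 CPM under empty vector and at 35.6, 37.2 and 37.9 CPM in the TAF1C-labelled libraries. The groups overlapped (log2 fold change 0.06 ± 0.13 (SE), edgeR adjusted p = 0.722), and the sign turned with library totals and upper quartile scaling. ITGA9, its closest relative, stood at 4.01 and 1.14 CPM under empty vector and at 1.24 to 1.44 CPM in the TAF1C-labelled libraries (edgeR adjusted p = 0.224).

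Among the leukocyte integrin chains and the platelet alpha chain, none passed in the main fit. The leukocyte alpha chains ITGAD, ITGAL, ITGAM and ITGAX, the beta chain ITGB2 that pairs with them, and ITGB7 lay at 0.533 to 8.5 CPM over the 5 libraries. Of these, ITGB7 stood at 6.13 and 4.59 CPM under empty vector and at 7.01, 8.5 and 7.92 CPM in the TAF1C-labelled libraries. Its groups did not overlap, but the difference did not pass (log2 fold change 0.54 ± 0.26 (SE), edgeR adjusted p = 0.143). ITGAE, which with beta7 holds lymphocytes to epithelium, stood at 10.3 and 18.9 CPM under empty vector and at 18.8, 20.1 and 18.2 CPM in the TAF1C-labelled libraries (edgeR adjusted p = 0.315). ITGA2B, the platelet alpha chain, stood at 15.4 and 1.17 CPM under empty vector and at 1.15 to 2.28 CPM in the TAF1C-labelled libraries (edgeR adjusted p = 0.111). With DESeq2 ITGA2B passed as lower (adjusted p = 0.0400). The platelet marker GP9 was at 0 to 0.294 CPM and the leukocyte marker PTPRC at 1.29 to 2.82 CPM over the 5 libraries. The 4 platelet markers summed to 4.76 and 3.13 CPM under empty vector and 4.11 to 4.76 CPM with the TAF1C label, with 0 raised and 0 lowered. The 6 haematopoietic markers, mostly HBB, summed to 52.1 and 38.1 CPM and 30.9 to 35.2 CPM, with 0 raised and 1 lowered.

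ITGA7, a laminin receptor chain of muscle, stood at 25.3 and 3.27 CPM under empty vector and at 6.0 to 6.36 CPM in the TAF1C-labelled libraries (edgeR adjusted p = 0.248). The 5 muscle markers summed to 2.9 and 79.8 CPM under empty vector and 1.65 to 4.33 CPM with the TAF1C label. CKM, the 1 muscle marker that fell, made up 76.4 CPM of the sum in replicate 2. The 5 glial markers summed to 50.5 and 4.62 CPM under empty vector and 5.85 to 7.42 CPM with the TAF1C label, the 4 endothelial markers found to 69.4 and 10.3 CPM and 26.2 to 27.0 CPM, and the 5 fibroblast markers to 49.9 and 17.9 CPM and 20.0 to 30.8 CPM, with 0 raised and 0 lowered in these lists. ITGA7, ITGA2B, ITGB8, LAMA3 and LAMA2 were highest in empty vector replicate 1. So were ITGA4, ITGA8, ITGA9, ITGA11, ITGAL, ITGAM, ITGAX, ITGB2, ITGB4 and LAMB4, and the epithelial markers that did not rise. The photoreceptor, neuronal, pigment cell, glial, endothelial, fibroblast and haematopoietic sums were also highest in that library. The part of such cells in these levels was not tested.

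The empty vector libraries differed more than 2-fold from each other in 14 of the 36 tested genes (38.9%), against 24.6% of all tested genes, and replicate 1 was the higher one in 27 of the 36, against 51.1%. Without replicate 2, 15 of the 36 were raised and 11 lowered, where 35.8% and 34% of all tested genes were called. Without replicate 1, 22 were raised and 4 lowered, where 29% and 29.5% of all tested genes were called. These fits share the TAF1C-labelled libraries, and the lone empty vector library is assumed to vary as they do. The median log2 fold change of the integrin and laminin genes was 0.84 when replicate 1 was left out, and 0.03 when replicate 2 was. The medians of all tested genes in these fits were -0.00028 and -0.025. Against empty vector replicate 1 alone, the median of the integrin and laminin genes thus lay close to that of all tested genes. The 13 raised genes, LAMA5 and ITGB4 kept call and direction in both fits. ITGA7 (-2.06 and 0.86), ITGA2B (-3.20 and 0.48), LAMA2 (-1.67 and 0.78) and ITGA9 (-1.61 and 0.17) had opposite signs in them.

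The number of raised integrin and laminin genes was 13 with all 5 libraries in each other scaling, filter, tool and block, while the background moved. With RLE factors, library totals, upper quartile scaling, no filter, filterByExpr, DESeq2, voom, the replicate block and rows by Ensembl ID, 16%, 12.3%, 15.8%, 3.61%, 7.18%, 20%, 15.8%, 7.74% and 15.8% of all tested genes were raised and 20.9%, 27.3%, 24%, 8.55%, 13.9%, 23.9%, 18.6%, 14.5% and 22.6% lowered, in that order. Of the integrin and laminin genes 2, 3, 2, 4, 2, 5, 2, 2 and 2 were lowered in these fits. Without a filter 50359 genes were tested and with filterByExpr 27710, against 18402 in the main fit. The shares of all tested genes in those fits thus cover other sets of genes, and are not comparable with that of the main fit. Without TAF1C replicates 1, 2 and 3 in turn, 13 were again raised each time, where 5.84%, 6.48% and 5.94% of all tested genes were raised, and 1, 1 and 2 were lowered, where 11.3%, 10.7% and 11.1% were.

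**Figure D5:**
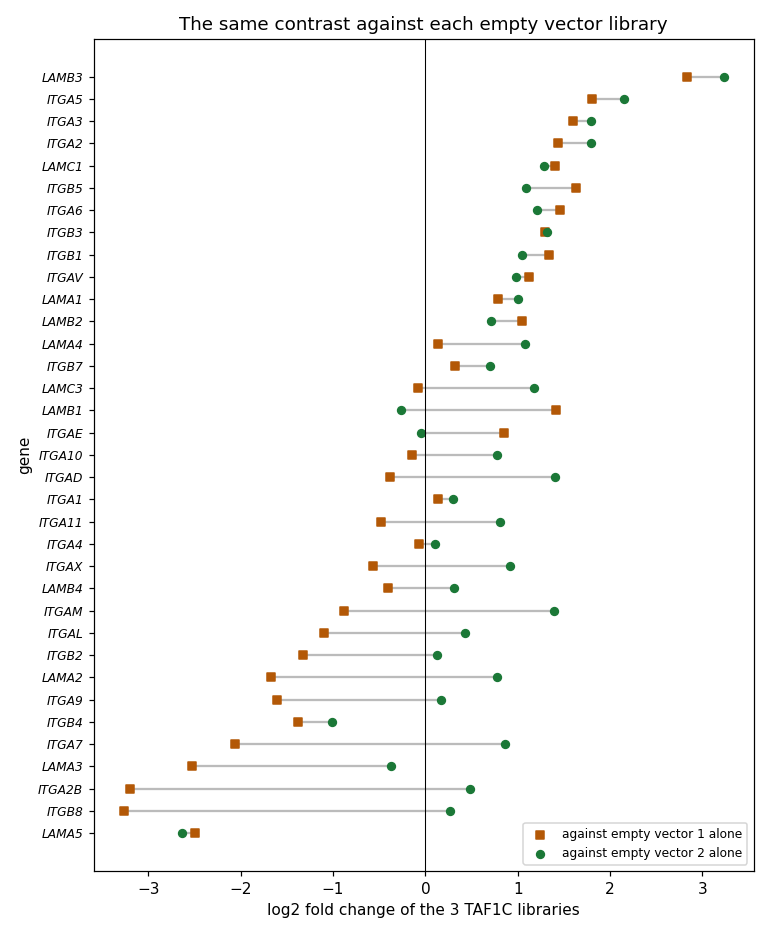
Log2 fold change of the 3 TAF1C-labelled libraries against each empty vector library alone (replicate 1 squares, replicate 2 circles) for 35 tested genes, in the order of the fit with both. The points lie on the same side of 0 for the 12 raised genes drawn, LAMA5 and ITGB4, and on opposite sides for ITGB8 (-3.27 and 0.26), ITGA2B (-3.20 and 0.48) and LAMB1 (1.41 and -0.27).

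Partners of these receptors were read from 4 lists of 62 genes, of which 59 were tested, 28 rose (47.5%) and 6 fell (10.2%), against 15.9% and 22.6% of all tested genes. Their median log2 fold change was 0.56, that of all tested genes -0.10. Without TAF1C replicate 1 or 3 the number raised was 18, where 5.84% and 5.94% of all tested genes were raised. Without empty vector replicates 1 and 2 in turn the number lowered was 10 and 13, where 29.5% and 34% of all tested genes were lowered. Among 28 proteins that link integrins to actin and to signalling, 16 rose (57.1%), 2 fell (7.14%) and 10 did not pass, against 15.9% raised and 22.6% lowered of all tested genes. TNS4, a tensin that binds beta tails, stood at 14.9 and 16.2 CPM under empty vector and at 73.7, 72.0 and 77.5 CPM in the TAF1C-labelled libraries (log2 fold change 2.26 ± 0.12 (SE), edgeR adjusted p = 0.000284). ZYX, zyxin, a focal adhesion protein that responds to tension, rose 3.91-fold (edgeR adjusted p = 0.00122). PARVA, a member of the complex of ILK and PINCH, rose 2.1-fold (edgeR adjusted p = 0.00142). KANK1, which binds talin at the rim of adhesions, was 4.64-fold higher under empty vector (edgeR adjusted p = 0.00142). The talins, which switch integrins on, parted: TLN1 rose 2.56-fold (edgeR adjusted p = 0.00239) and TLN2 fell by 1.06 on the log2 scale, with an edgeR adjusted p of 0.00159. FLNA, filamin, the gene of this list with the most counts, rose 1.89-fold (edgeR adjusted p = 0.0383), and its log2 fold change was 0.52 when empty vector replicate 1 was left out. The FLNA call was lost without any 1 of the TAF1C-labelled libraries (edgeR adjusted p = 0.122 to 0.134).

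Of 6 hemidesmosome proteins and other laminin binders, 2 rose (33.3%), 1 fell (16.7%) and 3 did not pass, beside the same 15.9% and 22.6% of all tested genes. PLEC, plectin, which joins beta4 to keratin, stood at 503 and 509 CPM under empty vector and at 1332, 1189 and 1288 CPM in the TAF1C-labelled libraries, a rise of 2.51-fold (edgeR adjusted p = 0.00257). CD151, a tetraspanin bound to alpha3 and alpha6, rose 2.16-fold (edgeR adjusted p = 0.00196). DST, which encodes the epithelial BP230 and also neuronal and muscle forms, stood at 1287 and 688 CPM under empty vector and at 329, 362 and 339 CPM in the TAF1C-labelled libraries, and was 2.87-fold higher under empty vector (edgeR adjusted p = 0.00932). The DST call was lost without any 1 of the TAF1C-labelled libraries (edgeR adjusted p = 0.0556 to 0.0559), and counts per gene do not separate these forms. COL17A1, the transmembrane collagen of the hemidesmosome, stood at 7.1 and 1.85 CPM under empty vector and at 2.38 to 3.87 CPM in the TAF1C-labelled libraries (edgeR adjusted p = 0.456). Its log2 fold change was -1.30 when empty vector replicate 2 was left out, and 0.60 when replicate 1 was.

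Of 16 tested matrix ligands and basement membrane partners, 7 rose (43.8%), 2 fell (12.5%) and 7 did not pass, where 15.9% and 22.6% of all tested genes rose and fell. FN1, fibronectin, the ligand of alpha5 beta1, stood at 242 and 179.9 CPM under empty vector and at 2417, 2455 and 2459.7 CPM in the TAF1C-labelled libraries, a rise of 11.6-fold (log2 fold change 3.53 ± 0.23 (SE), edgeR adjusted p = 0.000476). NID1, nidogen, which bridges the laminin gamma1 chain to collagen IV, stood at 46.4 and 40.6 CPM under empty vector and at 2.02, 1.24 and 1.61 CPM in the TAF1C-labelled libraries, and was 26.8-fold higher under empty vector (log2 fold change -4.74 ± 0.25 (SE), edgeR adjusted p = 0.000284). LAMC1 and NID1, whose products bind each other, thus differed in opposite directions. ICAM1, a ligand of leukocyte integrins, rose 2.74-fold (edgeR adjusted p = 0.000818). Of 9 tested trafficking proteins and inhibitors, 3 rose (33.3%), 1 fell (11.1%) and 5 did not pass, with 15.9% and 22.6% as the shares of all tested genes. RASA1, a RAS GTPase activating protein, stood at 72.7 and 73.3 CPM under empty vector and at 30.7, 33.7 and 32.3 CPM in the TAF1C-labelled libraries, 2.26-fold higher under empty vector (edgeR adjusted p = 0.00113). SHARPIN, an inhibitor of integrin activation, rose 1.7-fold (edgeR adjusted p = 0.0142), and DAB2, an endocytic adaptor, rose 1.66-fold (edgeR adjusted p = 0.0174). The DAB2 call was lost without any 1 of the TAF1C-labelled libraries (edgeR adjusted p = 0.0871 to 0.0975), and that of SHARPIN without replicate 1 (0.0719) or 3 (0.0702) of them. SNX17, a sorting nexin that recycles beta1 and the gene of this list with the most counts, did not pass (log2 fold change 0.64 ± 0.22 (SE), edgeR adjusted p = 0.0658). Its log2 fold change was 0.26 when empty vector replicate 1 was left out, and 1.02 when replicate 2 was.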

How the data were processed

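Long RNA of 5 BEAS-2B libraries was analysed. Per the labels' protocols RNA came from the mirVana kit, with ribosomal depletion and NEBNext Ultra libraries. Per the submitters' processing notes the tools, listed without role or order, include HISAT2, Bowtie2 2.2.4, Cufflinks 2.2.1, Trimmomatic 0.36 and DESeq2, with build hg19; annotation, strand and multimapping are not given in the sources used here. The deposited tables hold raw counts for 57773 Ensembl genes, and rows of 1 symbol were summed (ITGB3 has a second row at 0). Groups are those of the labels. Counts were tested with edgeR 4.0.16 (quasi-likelihood, TMM, at least 1 CPM by library totals in at least 2 libraries, Benjamini-Hochberg, two-sided, 0.05) in R 4.3.3. A run on simulated data gave the same spread to every gene and to both groups. The empty vector libraries here differed more than the TAF1C-labelled ones, so that run cannot show how the test performs on them. DESeq2 1.42.0 and limma 3.58.1 voom, other scalings and filters, a replicate block and left-out libraries were alternatives. Promoters came from RefSeq GRCh38.p14. TNS2, CCN1 and CCN2 were matched to older symbols by Ensembl ID. Every integrin and laminin gene could be named, and of each partner list the gene with the most counts and the 3 changed genes with the smallest adjusted p; TLN1, TLN2 and COL17A1, outside that rule, were chosen after their values were seen. The genes, the lists and the tests were chosen with earlier results of these data known. 1 gene of the set is not reported here, nor are results that rest on it, apart from counts over the set. Small RNA was not analysed here.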

Additional observations from a re-analysis of the deposited data

How the results depend on the processing

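Over the 14 alternatives, 14 of the 15 called genes kept call and direction, and ITGB4 was lost in the fits named with it and with the replicate block. The number of raised integrin and laminin genes was 13 in all fits with 5 libraries and 13 to 22 with 1 library left out. The number lowered was 4 without a filter, 5 with DESeq2 and 1 to 11 with 1 library left out. The cause was not tested. Leaving out 1 library gave 18 to 41 raised partner genes and 5 to 13 lowered ones, while 5.84% to 35.8% of all tested genes were raised and 10.7% to 34% lowered. All genes had 41.3% of calls raised, against 31.1% with library totals and 29.7% without a filter. The median log2 fold change of all genes was -0.33 with library totals and -0.04 with RLE factors, and that of the integrin and laminin genes 0.11 with library totals.

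Of the 21 genes that did not pass, 17 changed sign in some fit. With library totals the log2 fold change was -0.20 for ITGA11, -0.17 for ITGA4, -0.0014 for ITGAD and -0.25 for ITGAX. With upper quartile scaling it was -0.023 for ITGA11, -0.011 for ITGA4 and -0.067 for ITGAX. ITGAM was at 0.078 without a filter, 0.0019 with filterByExpr and 0.27 with voom. LAMB4 was at 0.033 with RLE factors, 0.088 without a filter, 0.033 with filterByExpr and 0.033 with DESeq2. With 1 library left out the log2 fold changes were ITGA7 -2.06 to 0.86, ITGA10 -0.14 to 0.78, ITGA11 -0.48 to 0.81, ITGA2B -3.20 to 0.48, ITGA4 -0.073 to 0.11, ITGA9 -1.61 to 0.17, ITGAD -0.39 to 1.40, ITGAE -0.052 to 0.86, ITGAL -1.10 to 0.43, ITGAM -0.88 to 1.39, ITGAX -0.57 to 0.91, ITGB2 -1.32 to 0.13, ITGB8 -3.27 to 0.26, LAMA2 -1.67 to 0.78, LAMB1 -0.27 to 1.41, LAMB4 -0.40 to 0.31, LAMC3 -0.078 to 1.18 and, of the partners, COL17A1 -1.30 to 0.60.

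Replicate numbers are shared by the groups for numbers 1 and 2, whose deviations correlated at 0.0403 and 0.122 across genes. Libraries with unlike numbers correlated at -0.122 to 0.0904. Deviations were taken from the group mean, so those of the 2 empty vector libraries mirror each other. Each TAF1C-labelled library therefore correlated with both at the same size and opposite sign, and the comparison cannot decide pairing. No label says that a number marks a shared batch, so whether the libraries are paired is not known, and the main fit did not pair them. With the replicate block, 13 integrin and laminin genes were raised and 2 lowered, and 18 partner genes raised; ITGB4 had an adjusted p = 0.0562, LAMA3 0.0276, ITGAM a log2 fold change of 0.24, ITGAX -0.052 and LAMB4 0.083.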
